A study of Mus musculus with 32 samples.

Results

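The insulin-like growth factor (IGF) family was followed here through 10 genes: the ligands Igf1 and Igf2, the receptors Igf1r and Igf2r, and the binding proteins Igfbp2, Igfbp3, Igfbp4, Igfbp5, Igfbp6 and Igfbp7. They were found by symbol in the mLEC table and joined by gene identifier to the table of hippocampus and meninges, and all 10 were present among the 22337 genes of each table. RNA-seq libraries came from male mice of 6 months, 1 mouse a library. The groups were WT, 5xFAD and 5xFAD + light, with 4 mice of each in hippocampus, 4, 3 and 3 in meninges, and 4, 3 and 3 for meningeal lymphatic endothelial cells (mLECs). WT mice were littermates without transgenes on the C57BL/6J background. 5xFAD mice carry mutated human APP and presenilin-1 transgenes under a Thy1 regulatory sequence, which is active mainly in neurons, so that they model amyloid deposition and not the whole disease. The light group received near-infrared light on the shaved scalp under isoflurane for 10 min, 3 times per week, for 4 weeks. The study's methods give control mice the same handling under indoor lighting, without saying whether these included the WT mice. mLECs were sorted as live CD45-CD31+PDPN+ cells from the meninges of single mice, which gives little RNA per library.

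IGF-1 and IGF-2 are small secreted growth factors that act on the tyrosine kinase receptor encoded by Igf1r, whereas the receptor encoded by Igf2r, also the mannose-6-phosphate receptor, takes IGF-2 up for breakdown. The binding proteins hold the ligands in the extracellular space, prolong their life and limit or deliver them to the receptor. IGFBP-6 prefers IGF-2, and IGFBP-7 binds the ligands weakly and is known as a vascular matrix protein. In the adult brain Igf2 is a gene of leptomeninges and choroid plexus, and Igf1 is made by neurons and by microglia, in which it belongs to the genes known to rise around amyloid plaques.

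The libraries held 13952825 to 23856476 estimated counts in hippocampus, 6601143 to 14708202 in meninges and 14231415 to 24207326 in mLECs, with 5998 to 9020 genes detected per mLEC library against 16371 to 18264 in hippocampus. Hippocampal Thy1 was at 170 to 189 FPKM in WT mice and at 407 to 622 FPKM in the 8 5xFAD mice, treated or not, which separated the genotypes as the labels give them. In mLECs the endothelial gene Pecam1 was present in all 10 libraries and the leukocyte gene Ptprc was at 0 in all 10. The lymphatic regulator Prox1 was listed at 0 in 3 of them, WT replicates 1 and 2 and 5xFAD replicate 2, and Pdpn, the gene of the sorting antigen podoplanin, at 0 in 4, WT replicates 2 and 4 and 5xFAD replicates 2 and 4. Among the other lymphatic markers, Flt4 was at 3.83 to 81.6 FPKM in all 10 libraries. Ccl21a was at 998 to 9356 FPKM except in WT replicates 2 and 4, at 3.54 and 0 FPKM, where Lyve1 was also at 0. The 8 lymphatic markers, Pecam1 among them, summed to 227 to 7078 FPKM in WT mLECs. Their sums were 1447 to 4728 FPKM in 5xFAD and 3347 to 9930 FPKM after light. Blood endothelial markers summed to 1154 to 6189 FPKM in WT mLECs. Prox1 and Pdpn were thus each absent from some libraries of the sort, and blood vessel markers were present. The hippocampal libraries also carried markers of neighbouring tissue to different degrees: 14 leptomeningeal fibroblast genes summed to 369 to 869 FPKM in WT mice, 790 to 2743 FPKM in 5xFAD mice and 498 to 781 FPKM in light-treated mice. For 10 choroid plexus genes the sums were 40.9 to 2852, 213 to 3246 and 67.3 to 251 FPKM.

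In WT mice every member was higher in meninges than in hippocampus. Both ligands and the binding proteins Igfbp2, Igfbp5, Igfbp6 and Igfbp7 stood far apart between the tissues, and Igf1r, Igfbp3 and Igf2r least. Igf2 was at 637, 828, 534 and 1082 FPKM (fragments per kilobase of transcript, scaled to the library's total, a level per length) in the 4 WT meninges and at 10.3, 27.8, 11.7 and 5.64 FPKM in the 4 WT hippocampi. Igfbp6 was at 703 ± 175 FPKM (SD, n = 4) against 20.3 ± 2.02 FPKM, and Igf1 at 69.8 ± 14.8 FPKM against 2.29 ± 0.569 FPKM. No sample of one tissue reached the other for these 3 genes. On the count scale the log2 difference of meninges minus hippocampus was 5.87 ± 0.496 (SE) for Igf2, 5.04 ± 0.394 for Igfbp6, 4.89 ± 0.288 for Igfbp7 and 4.32 ± 0.272 for Igf1. It was smallest for Igf1r, with 0.54 ± 0.195 and an adjusted p of 0.0174 by edgeR's quasi-likelihood test, and for Igfbp3 and Igf2r it was 1.09 and 1.20. All 10 members passed that test in this direction, where 39.9% of the 15132 genes tested were called higher in meninges.

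The order of the levels also differed by tissue. In WT meninges Igf2 (770 ± 241 FPKM) and Igfbp6 (703 ± 175 FPKM) came first and did not differ beyond their spread, followed by Igfbp2 (524 ± 105 FPKM), Igfbp4 (289 ± 130 FPKM) and Igfbp5 (249 ± 47.6 FPKM), with Igf2r (6.61 ± 1.14 FPKM) and Igf1r (5.16 ± 1.64 FPKM) last (SD, n = 4). In WT hippocampus Igfbp4 came first with 60.7 ± 4.48 FPKM, ahead of Igfbp2 (37.6 ± 21.2 FPKM) and Igfbp6 (20.3 ± 2.02 FPKM), and Igf1 last, close to Igf2r (2.72 ± 0.497 FPKM) and Igf1r (3.33 ± 0.393 FPKM). WT mLECs, in their own table and therefore only set beside the others, had Igfbp7 on top with 102, 336, 922 and 359 FPKM in the 4 libraries. Igfbp2, among the 3 highest members in both tissues, was listed at 0 in all 4 WT mLEC libraries, and Igf2 at 0 in 3 of 4.

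**Figure D1:**
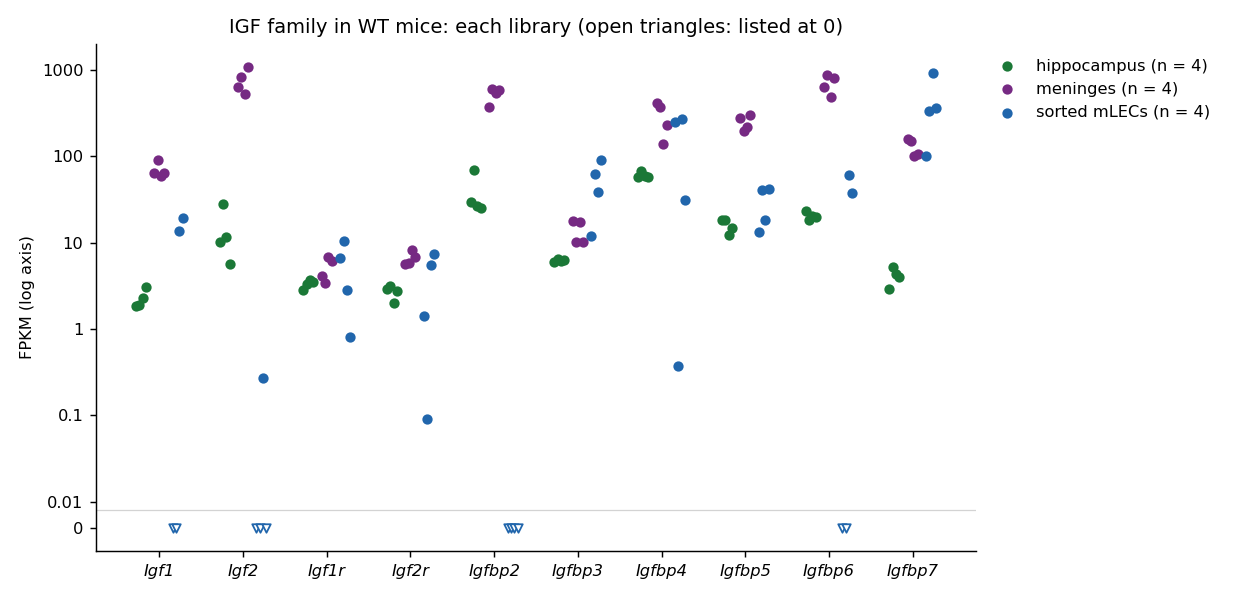
FPKM on a log axis of the 10 genes in the 4 WT libraries of hippocampus, meninges and sorted mLECs, 1 point a library, with open triangles for values listed at 0. Meningeal Igf2 sits between 534 and 1082 FPKM above hippocampal values of 5.64 to 27.8 FPKM, and mLECs show Igfbp2 only as triangles.

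In the hippocampus of 5xFAD mice Igf1, Igfbp5, Igfbp6 and Igfbp7 were higher than in WT mice, and no member was lower by the test. Igfbp6 and Igf1 changed most, by 3.83-fold and 2.71-fold on the count scale, and Igfbp7 and Igfbp5 by 1.91-fold and 1.62-fold. The 4 of 10 members that passed compare with 6.48% of all 12981 genes tested that were called higher in this comparison. The FPKM of Igf1, Igfbp5 and Igfbp6 did not overlap between the groups, 3 of 10 members where 8.75% of genes tested were separated in this direction. A bulk library cannot tell more RNA per cell from more cells of the type that makes it, here and below.

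For these 4 genes, called higher in the same comparison, the sequences before their RefSeq starts are shown, 250 bases before to 50 after. They are from the RefSeq set of GRCm38.p6, in which all 10 members were found with 14 starts. Capitals mark the letters searched, read on either strand, with no overlap between them here. The GC box was searched as GGGCGG. The TATA box was searched as TATAAA. The CCAAT box was searched as its 5 letters.
Igf1, chr10:87860861-87861160, plus strand: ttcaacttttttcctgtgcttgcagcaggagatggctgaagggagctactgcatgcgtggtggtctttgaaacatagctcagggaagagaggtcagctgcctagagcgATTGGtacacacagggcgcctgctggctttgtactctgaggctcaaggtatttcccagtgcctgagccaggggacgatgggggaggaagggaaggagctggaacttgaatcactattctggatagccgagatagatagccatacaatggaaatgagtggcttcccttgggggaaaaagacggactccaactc
Igfbp5, chr1:72874816-72875115, minus strand: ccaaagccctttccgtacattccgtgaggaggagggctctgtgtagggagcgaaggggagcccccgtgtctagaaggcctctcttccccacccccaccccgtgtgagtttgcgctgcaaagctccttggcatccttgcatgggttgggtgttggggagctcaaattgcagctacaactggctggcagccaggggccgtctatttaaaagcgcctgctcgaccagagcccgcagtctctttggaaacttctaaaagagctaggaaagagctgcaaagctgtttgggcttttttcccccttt
Igfbp6, chr15:102143936-102144235, plus strand: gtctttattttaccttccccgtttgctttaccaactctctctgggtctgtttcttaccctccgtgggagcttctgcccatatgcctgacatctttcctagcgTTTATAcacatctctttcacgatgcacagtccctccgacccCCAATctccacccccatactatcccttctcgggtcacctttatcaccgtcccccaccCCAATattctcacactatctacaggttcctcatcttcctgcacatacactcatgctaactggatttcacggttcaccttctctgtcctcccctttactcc
Igfbp7, chr5:77407996-77408295, minus strand: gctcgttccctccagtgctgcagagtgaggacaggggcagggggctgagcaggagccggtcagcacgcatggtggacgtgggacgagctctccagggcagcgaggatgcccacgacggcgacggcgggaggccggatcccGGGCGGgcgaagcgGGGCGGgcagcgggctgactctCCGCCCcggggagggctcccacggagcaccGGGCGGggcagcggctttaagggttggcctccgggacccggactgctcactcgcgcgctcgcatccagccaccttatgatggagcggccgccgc
By the letters searched, the Igfbp7 window held 4 GC boxes and 73.3% G or C. The Igfbp6 window held 1 TATA box, on the opposite strand (TTTATA), and 2 CCAAT boxes. The Igf1 window held 1 CCAAT box, on the opposite strand (ATTGG), and the Igfbp5 window none of the 3. Variants of these letters were not searched, and the function of the matches was not tested. Among 32851 mouse promoters of the same length 35.7% held a GC box, 13.6% a TATA box and 37.4% a CCAAT box, so no set of letters was common to the 4 genes. The RefSeq start used lay 2846 bases inside the GENCODE gene for Igf1 and 176 bases before it for Igfbp6, and within 19 bases of its end for Igfbp5 and Igfbp7.

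Igf1, the growth hormone-regulated ligand, lies on chromosome 10 at 87858265 to 87937042 (GRCm38, plus strand). It was at 1.85, 1.92, 2.30 and 3.09 FPKM in WT hippocampi, at 15.4, 9.86, 8.09 and 7.90 FPKM in 5xFAD and at 6.20, 8.08, 12.1 and 12.2 FPKM in 5xFAD + light. Every transgenic mouse lay above every WT mouse, and the ranges of treated and untreated 5xFAD mice lay across each other. On the count scale 5xFAD exceeded WT by 1.44 ± 0.225 (SE, log2), with an adjusted p of 0.00110 by edgeR, and it stayed past the threshold without any 1 of the 8 mice (adjusted p 0.00117 to 0.00676). The means of the deposited FPKM gave a larger ratio, 10.3 against 2.29 FPKM or 4.50-fold, and 2.10 as a log2 fold change in limma on log2(FPKM + 0.1).

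The counts and the FPKM of Igf1 gave unlike folds, and the length over which the deposited FPKM was computed differed between mice. That length, obtained by dividing each count by its FPKM and library total, was 3988, 3778, 2834 and 2085 bases in WT hippocampi, 1616, 1623, 2321 and 1827 bases in 5xFAD and 1782, 1554, 1581 and 1564 bases in 5xFAD + light. It was 3171 ± 881 bases in WT (SD, n = 4), 1847 ± 331 in 5xFAD and 1620 ± 108 in 5xFAD + light. Light-treated mice all lay below WT mice (two-sided exact permutation test p = 0.0286, the smallest that 4 against 4 allows, adjusted p = 0.0857 over 3 comparisons), while 5xFAD and WT met at 1 mouse (exact p = 0.0571, adjusted 0.0857). For Igfbp5, Igfbp6 and Igfbp7 the longest implied length in hippocampus was 1.01 times the shortest, against 2.57 times for Igf1. For Igf2 it was 1.48 times in hippocampus, 1.37 in meninges and 2.95 in mLECs. For Igfbp4 it was 1.17, 1.55 and 1.88 times, so the FPKM of these 2 genes carry the same limit. This comparison of lengths was made after the values had been seen.

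Igf1 followed the microglial genes of the hippocampus. Over the 12 hippocampi the genes with the highest Pearson correlation with Igf1 on log2(FPKM + 1), of 12981 genes, were Tyrobp (0.977), Trem2 (0.977), Cd300c2 (0.976), St14 (0.975) and Cd84 (0.974). Tyrobp and Trem2 encode an adaptor and receptor pair of microglia, and both belong to the 10 plaque-associated markers used here. The correlations describe 12 mice in 3 groups, and the difference between the groups is part of them. They rest on the FPKM of Igf1, whose implied lengths were unequal between mice, and were not computed on counts. The summed FPKM of those 10 markers was 143 to 179 in WT, 849 to 1571 in 5xFAD and 584 to 1338 in 5xFAD + light, and 9 of the 10 passed the test as higher in 5xFAD. Of 8 general microglial markers, summing to 410 to 469, 1158 to 2140 and 905 to 1522 FPKM, all 8 were called higher. What the number of microglia contributed to Igf1 was not tested.

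**Figure D2:**
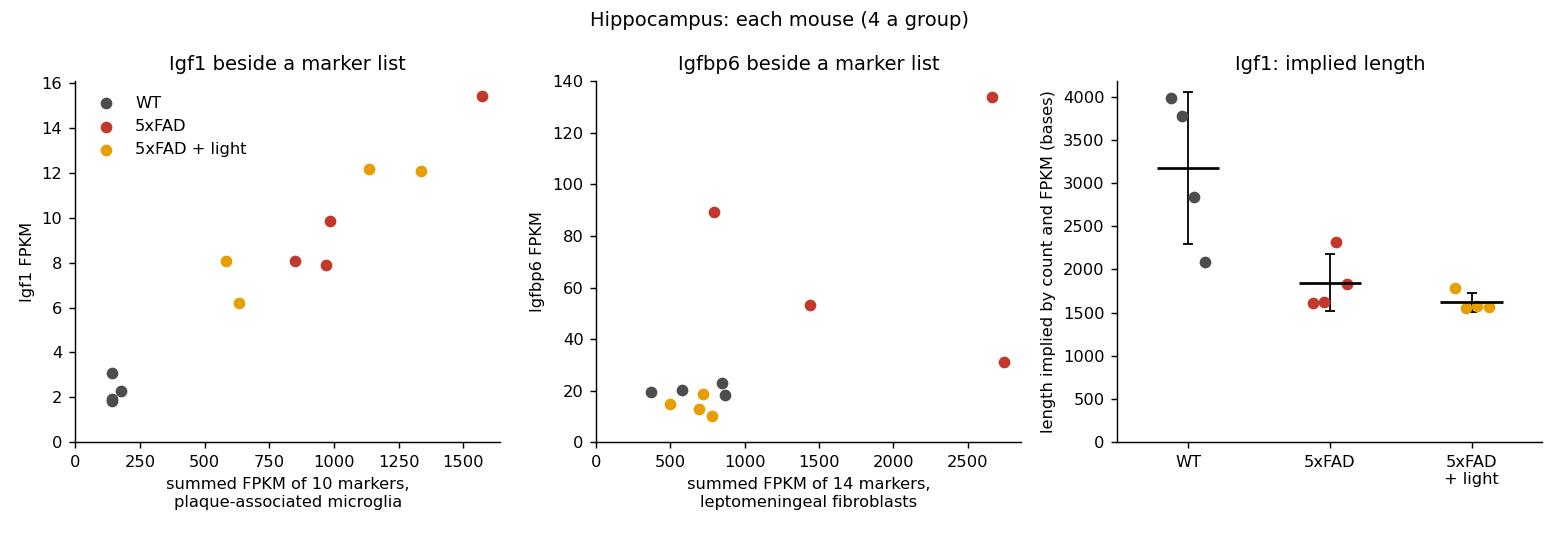
Left and middle, FPKM of Igf1 and Igfbp6 in each of the 12 hippocampi against the summed FPKM of 10 plaque-associated microglial and 14 leptomeningeal markers. Right, the length implied by count and FPKM for Igf1, with mean and SD (4 mice a group). Igf1 points climb with the markers from 1.85 to 15.4 FPKM, 3 of the 4 5xFAD mice have the highest leptomeningeal sums while the other, at 89.3 FPKM, lies among WT and light-treated mice on that axis, and WT mice have the longest implied Igf1 lengths.

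Igf2, the fetal ligand that persists in leptomeninges and choroid plexus, lies on chromosome 7 at 142650766 to 142666816 (minus strand). It was at 10.3, 27.8, 11.7 and 5.64 FPKM in WT hippocampi, 19.7, 42.0, 55.7 and 12.6 FPKM in 5xFAD and 9.05, 10.03, 6.80 and 12.7 FPKM in 5xFAD + light. The groups overlapped. 5xFAD over WT gave a log2 fold change of 1.42 ± 0.475, which did not pass (adjusted p = 0.0853). Without the 2 5xFAD libraries above 2000 summed FPKM of leptomeningeal markers, replicates 2 and 3, it was 0.40 with an adjusted p of 0.669, and without the 3 libraries above 2000 FPKM of choroid plexus markers, WT replicate 2 and 5xFAD replicates 1 and 2, it was 2.13 with an adjusted p of 0.0449. The genes most like it over the 12 hippocampi were Ddx18 (Pearson 0.956), Slc13a4 (0.942), Tns2 (0.938), Lman1 (0.928) and Cgnl1 (0.897), of which Slc13a4 is a sulfate transporter of leptomeninges and choroid plexus. Igf2 shares its strand and locus with the read-through gene Gm49394, whose own estimated counts were 0 to 12 in hippocampus and 3 to 28 in meninges and which could share reads with it. Antisense genes that overlap Igf1, Igf2 and Igf2r have no row of their own, and unstranded reads from them cannot be told apart.

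The receptors were level. Igf1r, which transmits the signal of both ligands, ranged from 2.80 to 3.71 FPKM in WT, 2.57 to 4.35 FPKM in 5xFAD and 3.61 to 4.43 FPKM in 5xFAD + light. Igf2r, the clearance receptor, ranged from 2.02 to 3.17, 1.82 to 3.34 and 2.39 to 2.88 FPKM. The log2 fold changes of 5xFAD over WT were 0.05 (95% interval -0.28 to 0.38) for Igf1r and -0.14 (-0.50 to 0.22) for Igf2r, so that a change of 1.5-fold or more lay outside both intervals.

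Igfbp6, on chromosome 15 at 102144362 to 102149511, changed most among the binding proteins. It was at 23.0, 18.2, 20.2 and 19.7 FPKM in WT hippocampi and at 89.3, 31.1, 134 and 53.3 FPKM in 5xFAD, without overlap but with a wide spread among 5xFAD mice (76.9 ± 44.9 FPKM, SD, n = 4). Its log2 fold change was 1.94 ± 0.351 (adjusted p = 0.00330). The leptomeningeal marker sums of the same 5xFAD mice, listed by replicate like the Igfbp6 values, were 790, 2743, 2662 and 1437 FPKM. The 2 did not rank alike: the mouse with the highest sum had the lowest Igfbp6, 31.1 FPKM, and the mouse with the lowest sum had 89.3 FPKM. Replicates 2, 3 and 4 exceeded every WT and light-treated mouse in this sum, and replicate 1 did not. Single markers did not all follow the sum. Col1a2 was at 1.10, 2.65, 3.35 and 1.52 FPKM in the 5xFAD replicates, against 0.40 to 0.80 FPKM in WT and 0.63 to 0.90 FPKM after light. Dcn was at 15.2, 27.9, 14.47 and 93.3 FPKM in 5xFAD, against 16.17 to 35.05 FPKM in WT and 2.77 to 16.02 FPKM after light. The part of these markers in the difference was not tested. Of the 13 leptomeningeal markers tested, 6 were called higher in 5xFAD, with a median log2 fold change of 1.44. Without the 2 libraries above 2000 FPKM of these markers the Igfbp6 change was 1.83, with an adjusted p of 0.000271. That fit kept 5xFAD replicate 4, at a sum of 1437 FPKM against 369 to 869 FPKM in WT, so the groups still differed in these markers.

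Igfbp5, one of the most conserved binding proteins and a matrix-bound one, rose less but more evenly. It was at 18.3, 18.2, 12.4 and 14.7 FPKM in WT, 30.2, 23.1, 21.6 and 26.7 FPKM in 5xFAD and 30.01, 30.9, 27.9 and 29.5 FPKM in 5xFAD + light. All 8 transgenic mice lay above all 4 WT mice. The log2 fold change of 5xFAD over WT was 0.69 ± 0.130 (adjusted p = 0.00413). Its neighbour Igfbp2, 5457 bases away on chromosome 1 on the opposite strand, overlapped between the groups at 29.4, 69.2, 26.6 and 25.2 FPKM in WT and 91.0, 68.9, 50.6 and 32.5 FPKM in 5xFAD (log2 fold change 0.72 ± 0.333, adjusted p = 0.207). The overlap came from WT replicate 2, without which the change was 1.18 with an adjusted p of 0.0249 by edgeR. With 1 mouse left out the adjusted p reached at most 0.457.

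Igfbp7, the vascular binding protein, was at 2.95, 5.26, 4.36 and 4.03 FPKM in WT and at 9.93, 6.56, 9.55 and 5.20 FPKM in 5xFAD, where the lowest 5xFAD mouse lay within the WT range. Its log2 fold change was 0.93 ± 0.246 (adjusted p = 0.0315). This call was lost without WT replicate 1, 3 or 4 or 5xFAD replicate 1 or 3 (adjusted p 0.0653 to 0.0991), with only WT and 5xFAD in the fit (0.0742), and without the libraries rich in leptomeningeal (0.0765) or choroid plexus markers (0.119). Igfbp7 overlaps the end of Polr2b on the other strand, and reads there cannot be told apart in unstranded libraries. Igfbp3 and Igfbp4, the serum carrier and the carrier cleaved by pappalysin-1, differed by -0.03 and -0.08 on the log2 scale.

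**Figure D3:**
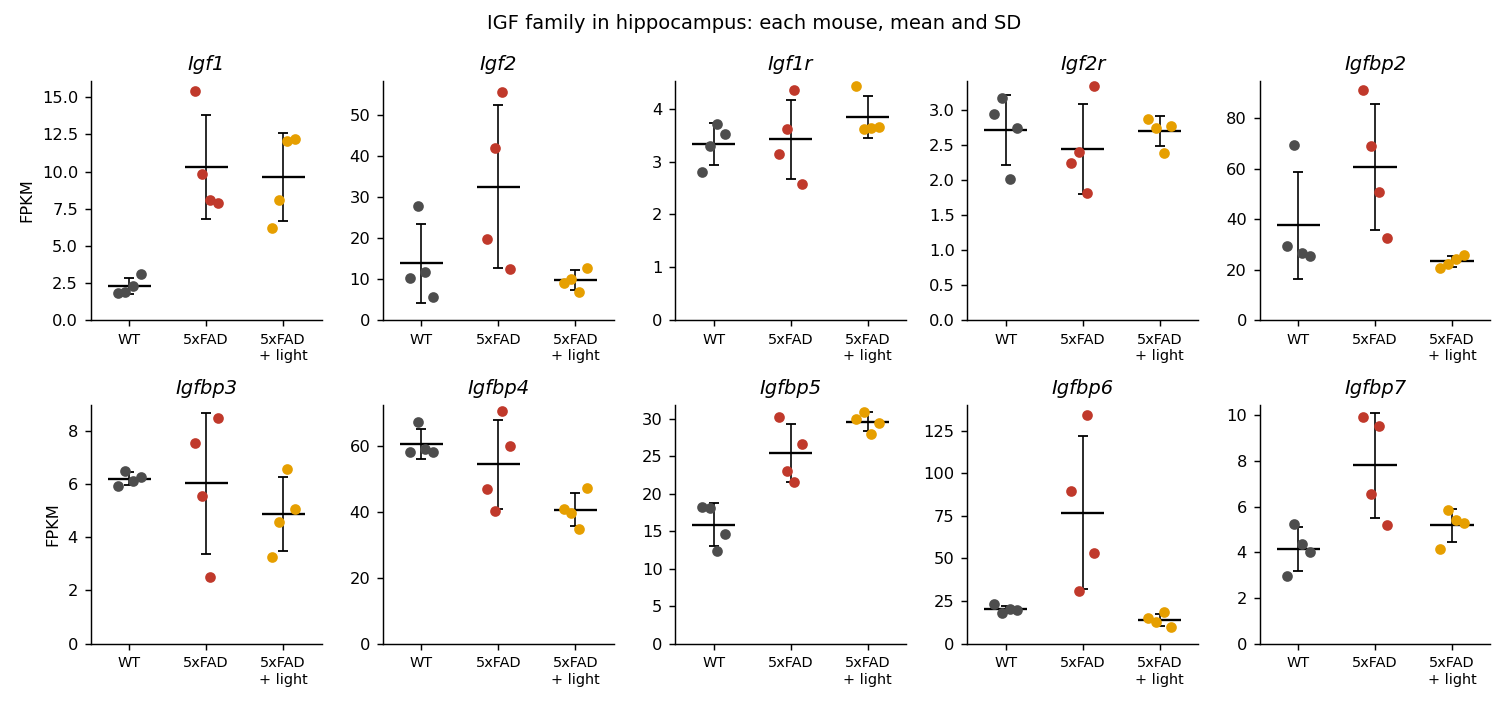
FPKM of the 10 genes in hippocampus, 1 point a mouse with mean (line) and SD (bar), 4 mice a group. Igf1 and Igfbp5 are high in both 5xFAD groups, while Igfbp6 is high only in untreated 5xFAD mice, at 31.1 to 134 FPKM against 10.01 to 23.0 FPKM in all others.

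Between light-treated and untreated 5xFAD hippocampi 1 of 10 members passed, Igfbp6, which was lower after light, where 0.185% of the genes tested were called lower. It was at 14.8, 13.0, 18.6 and 10.01 FPKM after light, all below the lowest untreated 5xFAD mouse, and 14.1 ± 3.59 FPKM on average (SD, n = 4). Light over untreated 5xFAD gave a log2 fold change of -2.45 ± 0.359 with an adjusted p of 0.0328. The size held without any 1 mouse, from -2.72 to -2.05, but the adjusted p went to 0.18, 0.154 and 0.0649 without light replicate 1, 2 or 4, to 0.121 with only these groups in the fit and to 0.0592 with a filter of 5 FPKM on the mean. Of the 13 leptomeningeal markers tested, 2 were also called lower after light, with a median log2 fold change of -1.49 over the list. Without the untreated libraries rich in these markers Igfbp6 differed by -2.34, with an adjusted p of 0.000897. That fit kept untreated replicate 4, whose sum of these markers was above every light-treated mouse.

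Igfbp2 and Igf2 were the next members in this comparison. Igfbp2 and Igfbp6 were the 2 of 10 members without overlap, both lower after light, as were 3.98% of genes tested. Igfbp2, the main binding protein of cerebrospinal fluid, was at 20.8, 22.4, 24.2 and 25.8 FPKM after light, below every untreated 5xFAD mouse, and its log2 fold change was -1.39 ± 0.340 (adjusted p = 0.0803). Igf2 had a log2 fold change of -1.73 ± 0.482 (adjusted p = 0.115), and its groups overlapped at 12.6 and 12.7 FPKM. DESeq2 called both, with adjusted p of 0.00223 and 0.0404. Igf2 went to -0.71 without the libraries rich in leptomeningeal markers, and Igfbp2 to -0.82 without those rich in choroid plexus markers. The choroid plexus list itself had a median of -1.96 in this comparison, with none of its 9 tested genes called. The other members had values of -0.60 (Igfbp7), -0.43 (Igfbp4), -0.31 (Igfbp3), -0.27 (Igf1), 0.14 (Igf2r), 0.16 (Igf1r) and 0.21 (Igfbp5). For Igf1 the 95% interval ran from -0.74 to 0.20 and for Igfbp5 from -0.06 to 0.49.

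Set against WT, light-treated 5xFAD hippocampi had higher Igf1 (log2 fold change 1.17 ± 0.225, adjusted p = 0.00828) and higher Igfbp5 (0.91 ± 0.130, adjusted p = 0.000921). These were 2 of 10 members, where 3.05% of genes tested were called higher. The same 2 members did not overlap between the groups and were higher, as were 7.33% of genes tested, and 1 member, Igfbp4, was separated as lower, as were 7.52%. Igfbp5 was the steadier of the pair, at 29.6 ± 1.25 FPKM after light against 15.9 ± 2.87 FPKM in WT (SD, n = 4). Igfbp6, at -0.51 ± 0.350, and Igfbp7, at 0.33 ± 0.247, did not pass (adjusted p 0.493 and 0.532). Igfbp4 was at 40.8, 39.8, 34.9 and 47.3 FPKM after light, below all WT mice at 58.1 to 67.4 FPKM, with a log2 fold change of -0.52 ± 0.152 and an adjusted p of 0.0906. It was called by DESeq2 (0.0255), with only these groups in the fit (0.00897) and without the libraries rich in leptomeningeal markers (0.0089). The 3 hippocampal comparisons share their groups, so the values of each stand on their own.

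**Figure D4:**
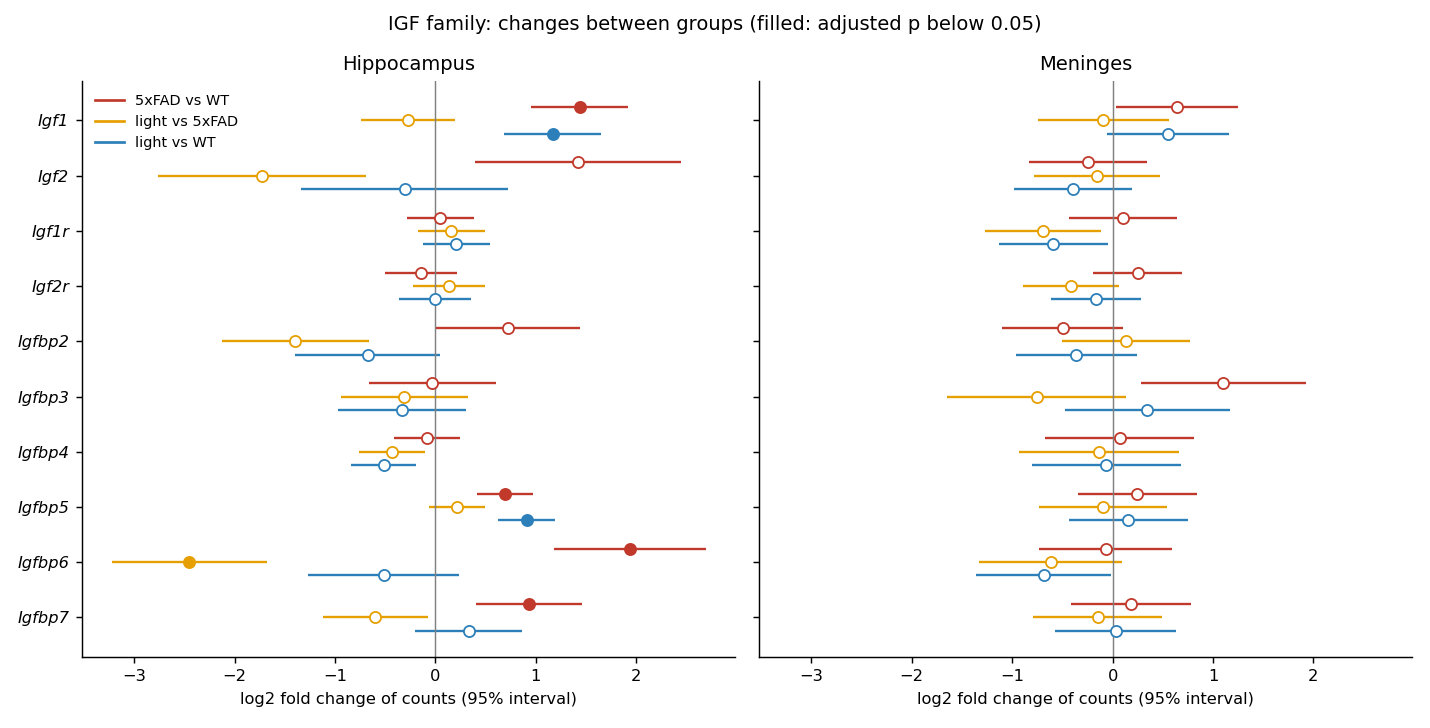
log2 fold changes of counts with 95% intervals for the 10 genes in hippocampus and meninges, 3 comparisons each, filled where the adjusted p is below 0.05. In hippocampus Igfbp6 stands at 1.94 in 5xFAD against WT and at -2.45 in light against 5xFAD, and no point is filled in meninges.

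The makeup of the binding proteins shifted with these genes. Their 6 FPKM values summed to 145 ± 27.0 in WT hippocampi, 231 ± 58.8 in 5xFAD and 118 ± 3.81 in 5xFAD + light (SD, n = 4). By mean share Igfbp4 was the first of them in WT, with 42.5% ± 4.34 of the sum, and after light, with 34.5% ± 3.69. By mouse the first place was held by Igfbp4 in 3 WT mice and Igfbp2 in 1, and by Igfbp4 in all 4 after light. In 5xFAD it was held by Igfbp2 in 2, Igfbp4 in 1 and Igfbp6 in 1 of 4. The mean share of Igfbp6 in 5xFAD, 31.3% ± 11.8, included 46.4% in replicate 3. After light Igfbp6 made up 12.02% ± 3.22. Igfbp5 made up 11.04% ± 1.70 in WT, 11.48% ± 3.02 in 5xFAD and 25.2% ± 1.51 after light. In meninges the sums were 1907 ± 295, 1802 ± 277 and 1565 ± 404 FPKM. There Igfbp6 had the first place by mean share in all 3 groups, with 36.4%, 37.1% and 27.8%. It was not first in WT replicate 3, behind Igfbp2 (488 against 548 FPKM), or in light replicate 4, behind Igfbp5 (279 against 287 FPKM).

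In meninges no member differed between groups by the test. None of the 14318 genes tested was called between 5xFAD and WT (0%), and 2 genes each were called for light against 5xFAD (0.014%) and light against WT (0.014%), none of them a member. At an unadjusted p below 0.05 there were 2 members in the first comparison (574 genes in all), 1 in the second (1822 genes) and 2 in the third (2355 genes), and DESeq2 and limma also called no member. Igf1 was at 64.1, 91.6, 58.6 and 64.8 FPKM in WT, 127, 80.6 and 77.8 FPKM in 5xFAD and 93.1, 65.4 and 103 FPKM in 5xFAD + light. The log2 fold change of 5xFAD over WT was 0.64 (95% interval 0.04 to 1.25, unadjusted p = 0.0394 and adjusted p = 0.987 by edgeR). Igf1 had no marker-like neighbours in this tissue, where Nop10 (0.874), Hdac2 (0.853), Tmem167 (0.848), Fam111a (0.846) and Kcnk4 (0.844) correlated most over 10 samples.

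Meningeal Igf2 was at 553, 667 and 517 FPKM in 5xFAD and 651, 584 and 345 FPKM after light, against 534 to 1082 FPKM in WT, so that the groups overlapped. Over the 10 meninges it went with Hmg20b (0.982), Nop53 (0.958), Avpi1 (0.950), Yif1b (0.943) and Ddrgk1 (0.942), and among members with Igfbp6 (0.854) and Igfbp2 (0.768). The largest value of any member between 5xFAD and WT belonged to Igfbp3, at 17.8, 10.3, 17.4 and 10.2 FPKM in WT and 21.9, 14.3 and 52.0 FPKM in 5xFAD, a log2 fold change of 1.10 ± 0.381 that was 0.39 when 1 mouse, 5xFAD replicate 4, was left out. Igfbp6 was at 557, 485 and 279 FPKM after light, against 527 to 858 FPKM in 5xFAD and 488 to 880 FPKM in WT. The lowest of these, light replicate 4, also had the lowest Igf2, Igfbp2 and Igfbp4 of the 10 meninges, and its bone and cartilage markers summed to 2345 FPKM against 245 to 658 FPKM in the others. The part of these markers in its values was not tested, and Igfbp6 in light against WT ran from -0.96 to -0.48 on the log2 scale with 1 mouse left out.

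The receptors Igf1r and Igf2r were the 2 of 10 members whose FPKM did not overlap between light-treated and untreated 5xFAD meninges, both lower after light, where 10.7% of all genes tested were separated in this direction. Igf1r was at 6.74, 4.51 and 5.20 FPKM in 5xFAD and at 3.31, 3.87 and 3.02 FPKM after light, so that no treated mouse reached an untreated one, and WT mice at 3.44 to 6.92 FPKM spanned both. The log2 fold change of light over 5xFAD was -0.69 ± 0.268 (unadjusted p = 0.0221, adjusted p = 0.334 by edgeR). Igf2r was at 8.19, 7.05 and 8.11 FPKM in 5xFAD and 5.96, 5.02 and 6.38 FPKM after light (-0.42 ± 0.222, adjusted p = 0.440). The intervals in meninges were wide, for Igf2 from -0.78 to 0.47 in light against 5xFAD. Values as large as -0.76 for Igfbp3 in that comparison did not pass either (adjusted p = 0.447 by edgeR). A member that was not called there is therefore not shown to be unchanged.

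In sorted mLECs 9 of the 10 members could be tested and none passed in any comparison, where 0% of the 8188 genes tested were called for 5xFAD against WT, 0% for light against 5xFAD and 0.0122% for light against WT. At an unadjusted p below 0.05 there were 0, 1 and 0 members (312, 328 and 550 genes in all). The 1 was Igf2, which entered the test only through the group where it is high. Its p is therefore not counted as a result, and its values are described below. Limma called none, and DESeq2 called Igf1r in light against WT alone. The spread between libraries was far larger than in the tissues, with a common biological coefficient of variation of 1.89 against 0.198 in hippocampus and 0.350 in meninges.

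Igfbp7 was the most abundant member in all 3 groups of mLECs, at 430 ± 348 FPKM in WT (n = 4), 521 ± 451 in 5xFAD (n = 3) and 536 ± 377 in 5xFAD + light (SD, n = 3), without a difference beyond its spread. Igfbp3 ranged from 11.95 to 90.3 FPKM in WT, 37.0 to 115 FPKM in 5xFAD and 55.6 to 107 FPKM after light, and Igfbp5 from 13.3 to 41.7, 5.55 to 109 and 51.2 to 84.8 FPKM. Igfbp4 ranged from 0.37 to 274 FPKM within the WT group. Igfbp5 after light lay above all WT libraries, as did 3.64% of genes tested, with a log2 fold change of 1.14 ± 0.829 (adjusted p = 1).

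Igf2 was detected in all 5xFAD mLEC libraries, in 1 of 4 WT libraries and in none after light. It had 347, 404 and 139 estimated counts in the 3 5xFAD libraries (6.94, 31.3 and 8.68 FPKM), none in the 3 light-treated libraries, and 0, 0, 11 and 0 in WT. Of all genes tested 5.01% were separated as higher in 5xFAD than in WT and 6.58% as lower in light than in 5xFAD. The 5xFAD libraries were at a CPM (counts scaled to the library's total) of 17.6, 28.4 and 7.46, with a mean of 17.8. That mean was 106-fold above an assumed floor of 3 counts per library in the light group, a mean CPM of 0.168. This ratio depends on the floor chosen and is not a lower limit for single libraries. Igf2 passed the filter on low values only through the 3 5xFAD libraries, so that it entered the test because of the group where it is high, and its values are a description with no test. Markers of leptomeningeal fibroblasts, which express Igf2, summed to 151 to 407 FPKM in these 5xFAD libraries, 116 to 716 FPKM in light and 227 to 572 FPKM in WT. Of the 14 markers 3, 6 and 7 were above 0 in the 5xFAD libraries, 3 to 5 in light and 2 to 4 in WT. The collagen gene Col1a2 was at 5.56, 14.02 and 0 FPKM in 5xFAD, at 0, 0.01 and 13.69 FPKM after light and at 0 to 0.01 FPKM in WT, Dcn at 36.9 to 276 FPKM in 5xFAD, and Lum, Slc6a13, Slc22a6 and Aldh1a2 at 0 in every mLEC library. Their part in the result was not tested.

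Igfbp6, Igf1r and Igf1 had patchy mLEC values. Igfbp6 was at 0, 0, 60.8 and 37.4 FPKM in WT, 47.7, 24.9 and 0 FPKM in 5xFAD and at 0.27, 0.04 and 0.06 FPKM after light. Igf1r was at 6.69, 10.5, 2.87 and 0.82 FPKM in WT, 2.09, 0.02 and 1.83 FPKM in 5xFAD and 0.39, 0.12 and 0.01 FPKM after light, where all treated libraries lay below all WT libraries, as for 2.03% of genes tested (unadjusted p = 0.0588, adjusted p = 0.752 by edgeR, DESeq2 adjusted p = 0.0184). Igf1 was at 0 in WT replicates 1 and 2 and at 13.5 and 19.2 FPKM in the others, at 16.2, 38.4 and 0.52 FPKM in 5xFAD and at 1.19, 18.5 and 52.4 FPKM after light, on implied lengths of 748 to 7168 bases, so that its FPKM are less comparable than its counts. Without the 3 libraries in which Prox1 was listed at 0, no member passed in any of the 3 comparisons either.

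**Figure D5:**
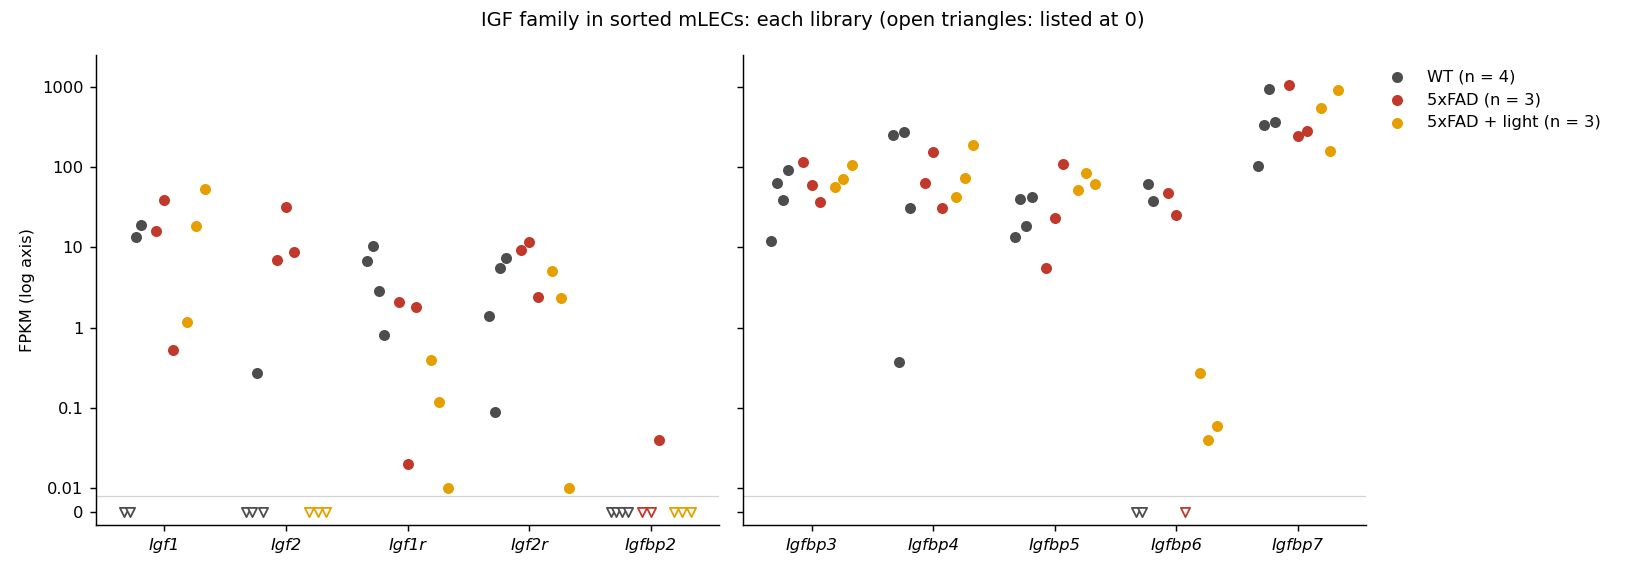
FPKM on a log axis of the 10 genes in each sorted mLEC library (4 WT, 3 5xFAD and 3 5xFAD + light), with open triangles for values listed at 0. Igf2 has points at 6.94 to 31.3 FPKM in 5xFAD and only triangles after light, and Igfbp7 stands between 102 and 1042 FPKM in all groups.

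Whether hippocampus and meninges responded unlike each other was tested in 1 fit of both, which took all libraries as independent. For genotype Igfbp6 alone of 10 members passed, with a difference of meninges minus hippocampus of -2.01 ± 0.500 on the log2 scale (adjusted p = 0.0407), where 1.67% of the 15132 genes tested were called in this direction. Igfbp6 was 3.83-fold higher in 5xFAD hippocampi and 0.953-fold in meninges. Without the 3 hippocampal libraries rich in choroid plexus markers the difference was -2.18 with an adjusted p of 0.0507, and without the 2 rich in leptomeningeal markers -1.90 with 0.0182. For light no member passed (1.05% of genes called in either direction), while 5 members had an unadjusted p below 0.05 among 2998 genes. Igfbp6 was nearest, with 1.82 ± 0.514 and an adjusted p of 0.0772, followed by Igfbp2 with 1.51 ± 0.482 and 0.107, and DESeq2 called both (0.0173 and 0.0395). Limma called none.

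Around the family, 38 of 39 listed genes of the wider IGF axis were in the tables and 27 were tested in hippocampus. Of these 2 were higher and 1 was lower in 5xFAD than in WT, against 6.48% higher and 2.06% lower over all genes tested, and the list's median log2 fold change was -0.04 against 0.01 over all genes. Stat5b, a transcription factor of growth hormone signalling, was higher by 0.76 ± 0.182 (adjusted p = 0.0198), Htra3, a secreted protease that cleaves binding proteins, by 0.74 ± 0.177 (0.0197), and Tsc2, a brake on mTOR, was lower (-0.32 ± 0.087, 0.0366). None of the 27 passed in either hippocampal comparison with light, nor of 29 in meninges or 21 in mLECs in any comparison. Between WT tissues 13 of 29 were higher and 9 lower in meninges, against 39.9% and 33.2% of all genes tested, and those with the smallest p were Htra3 (4.13), the adaptor gene Shc1 (3.71), Stat5a (3.15), the growth hormone receptor Ghr (2.21), the receptor substrate Irs1 (2.00) and, in the other direction, the kinase gene Gsk3b (-1.24). The insulin receptor Insr was the 1 axis gene whose light effect differed between tissues, by -1.47 ± 0.325 (adjusted p = 0.0398).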

How the data were processed

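RNA-seq by Smart-seq2 was made from hippocampus, meninges and sorted mLECs of single mice and sequenced on a NovaSeq. The authors deposited expected counts per gene (by RSEM in the study's methods) and FPKM (fragments per kilobase, scaled to the library's total), in 1 table for hippocampus and meninges and 1 for mLECs. The study's methods name fastp for trimming and DESeq2 with a 2-fold threshold, whereas the submitters' processing notes name Trimmomatic, HISAT2, StringTie, DESeq2 and mm10; which of them made these tables was not resolved. The library kit does not mark strand. Groups came from the labels.

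Expected counts were rounded, scaled by TMM, and tested with edgeR 4.0.16 (quasi-likelihood, two-sided, R 4.3.3), all groups of a tissue in 1 fit, on genes reaching an FPKM of 1 in 3 or more libraries. p-values were adjusted by Benjamini-Hochberg over all genes tested, with calls at 0.05. SE and 95% intervals came from the F statistic. Alternatives were RLE scaling, other filters, the replicate block, only the 2 groups compared, DESeq2 1.42.0, limma 3.58.1 on log2(FPKM + 1) and log2(FPKM + 0.1), a 2-fold rule and leaving out each replicate, and, added after seeing the data, leaving out libraries rich in markers or with Prox1 at 0. The fits were tested on simulated data. Replicate libraries differed by more than sampling noise. Same-numbered samples in different groups of a tissue did not deviate together (correlations -0.31 to 0.244), so numbers were not taken as pairs. Whether a hippocampus and a meninges library of the same group and number came from 1 mouse is not given in the labels and was not checked. Each library is 1 mouse, so the error is that between mice plus library preparation. All 10 genes and those of the wider axis passing the test were named, up to 6 a comparison. The 5 genes most like Igf1 and Igf2 were ranked without Gm and Rik symbols. Members and lists were chosen with earlier results of these data known. Positions are from GENCODE vM21. No gene is named H19 in the tables, and protein sequences were not used here.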

Additional observations from a re-analysis of the deposited data

Results flagged for a closer look

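Of 49 gene and group combinations with 4 libraries, 4 had 1 library whose gap to the nearest of the other 3 took up more of the group's range than Dixon's 95% limit, and chance flags about 1 in 20. WT replicate 2 of the hippocampus held 2 of them, Igfbp2 at 69.2 FPKM against 29.4 FPKM in the nearest WT mouse and Igfbp4 at 67.4 FPKM against 59.0 FPKM. The same mouse had 2852 summed FPKM of choroid plexus markers, where the other WT mice had 40.9 to 421 FPKM. Light-treated replicate 1 of the hippocampus had Igf1r at 4.43 FPKM, the next mouse 3.66 FPKM. In WT mLECs Igf2 was at 0.27 FPKM in replicate 3 and at 0 in the others. With the others tied at 0, any value above 0 would have been flagged, so the rate of 1 in 20 does not apply to this flag.

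The genotype effect on Igfbp6 differed between the tissues, with a log2 difference of meninges minus hippocampus of -2.01 (edgeR adjusted p = 0.0407, 4 of 4 5xFAD hippocampi above every WT hippocampus, and 5xFAD meninges within the WT range). The adjusted p was above the threshold with the replicate block (0.0913), with limma on log2(FPKM + 1) (0.0874) and without the libraries rich in choroid plexus markers (0.0507).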

How the results depend on the processing

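The spread between libraries, with a common biological coefficient of variation of 1.89 in mLECs and 0.350 in meninges against 0.198 in hippocampus, sets the width of the intervals there. In hippocampus 4 members passed in 5xFAD against WT, 2 with a 2-fold rule and 3 to 6 with 1 mouse left out. In light against 5xFAD 1 member passed, 0 with a mean FPKM of at least 5, 0 with only the 2 groups compared, 3 with DESeq2 and 0 to 1 with 1 mouse left out. In light against WT 2 passed, 1 with a 2-fold rule. In mLECs DESeq2 called 1 member in light against WT. For the tissue difference in light DESeq2 called 2 members, and for that in genotype 0 members passed with the replicate block, with limma on log2(FPKM + 1) and without the libraries rich in choroid plexus markers. Igfbp7 in 5xFAD against WT hippocampus had an adjusted p of 0.0629 with the replicate block by edgeR, and the Igfbp6 tissue difference in genotype one of 0.0913. No other call of a member was lost with the block, which the numbers do not justify as a pairing. The cause of these changes was not tested.

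Changes of sign among log2 fold changes were seen in 21 of 534 alternatives in hippocampus, 26 of 437 in meninges, 39 of 376 in mLECs and 3 of 214 between tissues, none of them for a value that had passed the test. Without the libraries rich in leptomeningeal markers the sign turned for Igf1r -0.20, Igf2r 0.041 and Igfbp3 0.37 in hippocampus (5xFAD against WT) and Igf2r -0.044 in hippocampus (light against 5xFAD). Without those rich in choroid plexus markers the sign turned for Igfbp4 0.16 in hippocampus (5xFAD against WT), Igf2 0.25 and Igf2r 0.068 in hippocampus (light against WT), Igf1 -0.031 in the tissue difference in light and Igfbp4 -0.048 in the tissue difference in genotype. With the replicate block the sign turned for Igf2r 0.010 in hippocampus (light against WT), Igfbp4 -0.10 in meninges (5xFAD against WT), Igfbp7 -0.14 in meninges (light against WT), Igfbp4 0.10, Igfbp5 -0.46 and Igfbp6 4.22 in mLECs (5xFAD against WT), Igf1 -0.84, Igfbp4 -0.41 and Igfbp7 -0.61 in mLECs (light against 5xFAD) and Igfbp7 -0.20 in mLECs (light against WT). With limma on log2(FPKM + 1) the sign turned for Igf2r 0.00073 in hippocampus (light against WT), Igfbp4 0.71, Igfbp5 -0.033 and Igfbp6 0.63 in mLECs (5xFAD against WT), Igfbp4 1.01 in mLECs (light against WT) and Igf1 -0.025 in the tissue difference in light. With limma on log2(FPKM + 0.1) the sign turned for Igf2r 0.0050 in hippocampus (light against WT), Igfbp4 1.08, Igfbp5 -0.070 and Igfbp6 1.17 in mLECs (5xFAD against WT) and Igfbp4 1.39 in mLECs (light against WT). With 1 mouse left out the values crossed 0 for the members that follow. In hippocampus (5xFAD against WT) Igf1r ran from -0.085 to 0.17, Igfbp3 ran from -0.21 to 0.22 and Igfbp4 ran from -0.25 to 0.034. In hippocampus (light against WT) Igf2 ran from -0.54 to 0.25 and Igf2r ran from -0.11 to 0.067. In meninges (5xFAD against WT) Igf1r ran from -0.059 to 0.24, Igfbp4 ran from -0.12 to 0.22, Igfbp6 ran from -0.28 to 0.091 and Igfbp7 ran from -0.079 to 0.31. In meninges (light against 5xFAD) Igf1 ran from -0.32 to 0.21, Igfbp2 ran from -0.065 to 0.36, Igfbp4 ran from -0.33 to 0.16, Igfbp5 ran from -0.32 to 0.14 and Igfbp7 ran from -0.37 to 0.11. In meninges (light against WT) Igfbp4 ran from -0.26 to 0.23 and Igfbp7 ran from -0.19 to 0.25. In mLECs (5xFAD against WT) Igf1 ran from -0.66 to 2.01, Igfbp3 ran from -0.15 to 0.72, Igfbp5 ran from -1.09 to 1.11, Igfbp6 ran from -1.03 to 1.02 and Igfbp7 ran from -0.82 to 0.90. In mLECs (light against 5xFAD) Igf1 ran from -0.58 to 1.56, Igfbp3 ran from -0.12 to 0.70, Igfbp4 ran from -0.16 to 1.12 and Igfbp7 ran from -0.57 to 0.99. In mLECs (light against WT) Igf2r ran from -1.46 to 0.0049, Igfbp4 ran from -1.06 to 0.40 and Igfbp7 ran from -0.42 to 0.93. The alternatives without marker-rich libraries were chosen after seeing the data.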
